A study of Mus musculus with 32 samples.

Results

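A set of 35 genes that mark macrophages and related myeloid cells was followed through bulk RNA sequencing of mouse tendon assembloids. The members were taken by name, from a list that holds growth and chemokine receptors, a lineage transcription factor, adhesion molecules, leukocyte membrane proteins, Fc receptors and their adaptors, microbial sensors, complement C1q, scavenger receptors and antimicrobial proteins. All 35 were found among the 25700 genes of every count file, and all 35 had enough counts to be tested in each comparison below.

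An assembloid is a tail tendon fascicle, the core explant, embedded in a collagen-1 hydrogel that was left without cells or loaded with a second cell population and kept in culture for 7 days. The 32 samples fell into 7 groups. 6 hydrogels had held fibroblasts around a core labelled Il-6-/- (KO hydrogels), and 6 had held fibroblasts around an Il-6+/+ core (WT hydrogels). The core explants themselves came as KO cores with fibroblasts in the gel (n = 4), KO cores with a cell-free gel (n = 4), WT cores with macrophages in the gel (n = 4), WT cores with fibroblasts in the gel (n = 4) and WT cores with a cell-free gel (n = 4). The mice that gave the cores and the seeded Achilles tendon cells were of the B6.129S2-Il6tm1Kopf/J line, adult and of both sexes. The knock-out was present in the core only, since the Achilles tendon cells (called progenitors in the labels and fibroblasts by the study) were Il-6+/+ in both hydrogel groups. Each core sample pooled fascicles of a single mouse, whereas a hydrogel sample pooled 2 gels and held the seeded cells, grown out from several mice on plastic, together with whatever had migrated out of the core. By the methods, the co-culture medium contained macrophage colony-stimulating factor (M-CSF), which the labels' description of the medium does not list, and no group is described as kept without it. Neither labels nor methods state where the seeded macrophages came from, and hydrogels with macrophages were not analysed here.

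Libraries held 20360289 to 59860703 counts. Il6 itself lay between 5.56 and 36.7 CPM (gene counts expressed per library total) in KO hydrogels, 6.84 and 35.1 CPM in KO cores, 2.08 and 17.1 CPM in WT cores and 4.01 and 9.47 CPM in WT hydrogels. These gene-level counts do not isolate the targeted exon and therefore check nothing about the genotype, so KO is used below as the label says it. Some samples stood out in the levels of the members themselves. KO hydrogel replicate 5 was the lowest of all 12 hydrogels for 35 of 35 members, and KO cell-free core replicate 2 was the lowest of its group in the summed level of the members. The fits without these samples are given beside the comparisons of KO cores, of KO hydrogels with cores and of hydrogels with each other. The samples were picked by the members' own levels, so such fits add no separate support.

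Tissue macrophages depend on signals through the M-CSF receptor and on the transcription factor PU.1, which binds purine-rich sites near the start of many myeloid genes. They sense opsonised and microbial cargo through Fc receptors, C-type lectins and toll-like receptor complexes, take it up with scavenger and efferocytosis receptors, and destroy it with lysozyme and the phagocyte NADPH oxidase. Tendon holds resident macrophages beside its fibroblasts.

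PU.1 is encoded by a member, Spi1, and the core of its site is the PU box, GAGGAA or TTCCTC on the other strand. In the RefSeq promoter windows of build GRCm38.p6, which run from 250 bases before to 50 bases after a start, these letters were searched on both strands. They occurred in 16 of 29 windows of the 24 members that had a window (55.2%), against 9289 of 32851 windows of all genes (28.3%). A window with these letters is a description and not a bound site. The windows of 5 members are shown because they come from both sides of the main result below, namely 3 genes that fell in cores beside macrophages and 2 that did not, with the PU box in capitals. All 5 were picked among windows that hold the letters. The windows of Cd180 and Coro1a, which fell, and of Mertk, Gpnmb, Lyz2 and Mpeg1, which were not called, held none.
Itgam, chr7:128062390-128062689, plus strand: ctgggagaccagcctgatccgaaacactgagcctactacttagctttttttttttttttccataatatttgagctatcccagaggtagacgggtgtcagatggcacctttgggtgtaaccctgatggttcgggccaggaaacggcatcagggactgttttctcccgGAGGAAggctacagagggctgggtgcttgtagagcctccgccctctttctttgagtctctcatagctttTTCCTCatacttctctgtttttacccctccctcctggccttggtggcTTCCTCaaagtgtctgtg
Cd53, chr3:106790100-106790399, minus strand: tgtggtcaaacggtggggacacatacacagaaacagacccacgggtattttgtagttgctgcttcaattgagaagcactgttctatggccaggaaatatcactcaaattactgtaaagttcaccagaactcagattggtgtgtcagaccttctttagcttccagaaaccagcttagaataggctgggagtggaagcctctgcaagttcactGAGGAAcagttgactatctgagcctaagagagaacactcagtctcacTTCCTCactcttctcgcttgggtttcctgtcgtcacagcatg
Cybb, chrX:9469275-9469574, minus strand: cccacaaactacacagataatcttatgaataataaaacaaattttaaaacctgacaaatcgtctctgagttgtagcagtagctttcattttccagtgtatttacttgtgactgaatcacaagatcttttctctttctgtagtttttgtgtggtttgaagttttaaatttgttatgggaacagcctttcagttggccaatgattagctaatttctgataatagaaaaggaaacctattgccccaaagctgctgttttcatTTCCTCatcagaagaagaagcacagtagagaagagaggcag
C1qb, chr4:136886151-136886450, minus strand: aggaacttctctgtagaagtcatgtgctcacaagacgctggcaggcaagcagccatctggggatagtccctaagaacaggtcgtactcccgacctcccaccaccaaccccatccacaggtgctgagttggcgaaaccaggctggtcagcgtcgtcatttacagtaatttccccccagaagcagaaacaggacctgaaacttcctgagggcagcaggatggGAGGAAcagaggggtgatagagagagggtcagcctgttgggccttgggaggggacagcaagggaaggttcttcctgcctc
Aif1, chr17:35176003-35176302, minus strand: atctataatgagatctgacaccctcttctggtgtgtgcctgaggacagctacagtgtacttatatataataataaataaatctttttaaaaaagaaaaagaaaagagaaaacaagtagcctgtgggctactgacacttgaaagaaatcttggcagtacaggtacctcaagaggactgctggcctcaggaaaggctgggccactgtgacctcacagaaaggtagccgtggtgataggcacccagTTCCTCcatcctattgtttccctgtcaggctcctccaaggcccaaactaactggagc
Itgam carried the letters at 3 places, Cd53 at 2, and Cybb, C1qb and Aif1 at 1 each.

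The members together made up a small and variable share of the RNA. Levels are given as CPM of the library total or as percentages of it, while fold changes use library sizes scaled by TMM, the trimmed mean of M values. Their summed counts were 3.61%, 2.41%, 2.07%, 1.60%, 0.322% and 1.44% of all counts in the 6 KO hydrogels, against 2.26%, 1.96%, 2.02%, 1.93%, 1.32% and 1.72% in the 6 WT hydrogels. In cores the share was 1.34%, 1.34%, 1.28% and 1.17% in KO cores with fibroblasts, against 2.49%, 1.01%, 1.46% and 1.84% in cell-free KO cores. WT cores gave 1.00%, 1.33%, 1.06% and 1.79% beside macrophages, 1.24%, 1.41%, 1.30% and 1.18% beside fibroblasts, and 2.00%, 1.57%, 1.74% and 1.84% with a cell-free gel. The cores with fibroblasts thus lay within a narrow band that did not overlap the cell-free WT cores, while cores with macrophages overlapped both and were highest in replicate 4. Lyz2 alone, the lysozyme of myeloid cells, made up 39.5% to 55.8% of the summed counts. In bulk RNA, fewer cells of a type and less RNA per cell cannot be told apart.

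**Figure D1:**
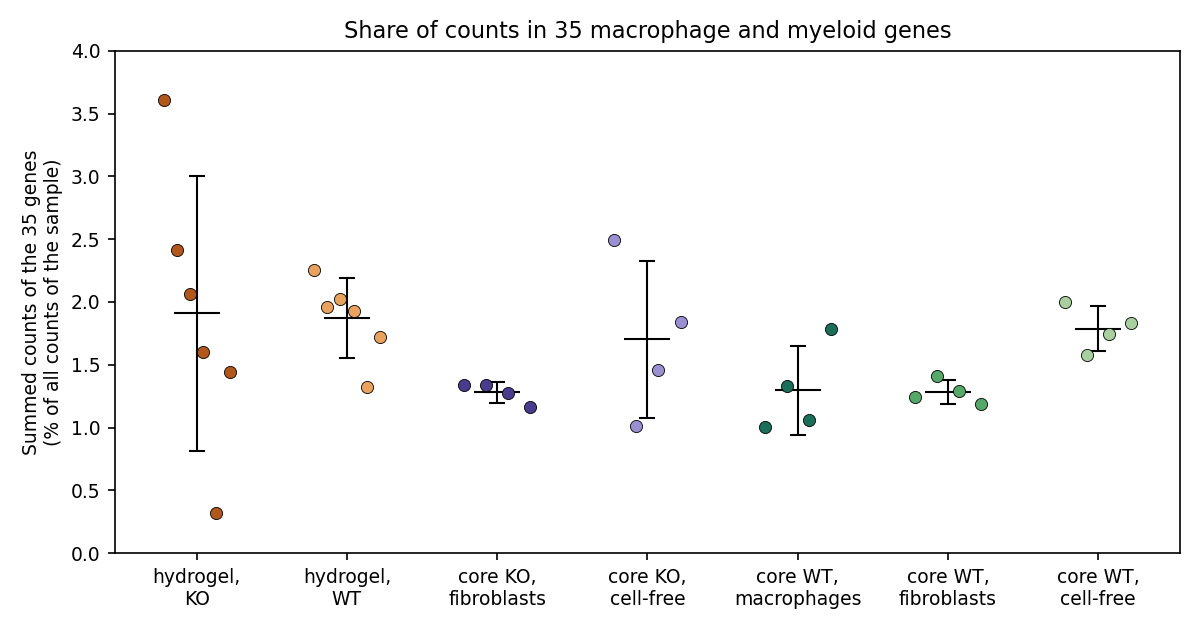
Summed counts of the 35 genes as a percentage of all counts of the sample (vertical axis) for the 7 groups (horizontal axis). Each point is a sample, the line is the mean and the bar is 1 SD. KO hydrogels spread from 0.322% to 3.61%, and the 4 WT cores with fibroblasts lie between 1.18% and 1.41%, below all 4 cell-free WT cores.

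The first question is how these genes differed in WT cores beside seeded macrophages. None of the 35 members rose in cores beside macrophages relative to cell-free cores, and 10 fell (edgeR quasi-likelihood test, Benjamini-Hochberg adjusted p below 0.05 and a log2 fold change beyond 0.5). The fall was deepest for the scavenger receptor Msr1 and the adaptor Lat2, and it took in the integrin pair Itgam and Itgb2, the microbial sensors Cd180 and Cd14, the homophilic receptor Cd84, the actin-binding Coro1a, the tetraspanin Cd53 and the NADPH oxidase subunit Cybb. The M-CSF receptor Csf1r, the C1q subunits, Aif1, Mertk, Gpnmb and Laptm5 were not called. Across all genes 0.748% were called higher and 3.84% lower in this comparison (4.59% in either direction). At an unadjusted p below 0.05 with the same fold, 17 members were lower, against 3.72% of all genes higher and 6.56% lower (10.3% in either direction). The median log2 fold change was -0.45 over the members and 0.01 over all genes, with 29 members below 0 and 6 above.

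Msr1, which takes up modified lipoproteins, had 78.3, 134, 93.8 and 119 CPM beside macrophages, against 570, 421, 407 and 636 CPM in cell-free cores. The groups were far apart, and the log2 fold change was -2.36 ± 0.25 (SE, n = 4 each, edgeR adjusted p = 0.00203). Lat2, an adaptor that carries signals from ITAM-coupled receptors, had 17.4, 28.2, 17.2 and 19.4 CPM beside macrophages, against 81.3, 83.3, 69.3 and 99.6 CPM in cell-free cores. Again no macrophage core reached a cell-free core, with a log2 fold change of -2.13 ± 0.20 (edgeR adjusted p = 0.00125). Itgam, the alpha chain of complement receptor CR3, had 114, 209, 120 and 175 CPM beside macrophages, against 521, 393, 316 and 465 CPM in cell-free cores. Its log2 fold change was -1.55 ± 0.26 (edgeR adjusted p = 0.00964), and its partner chain Itgb2 had -1.21 ± 0.22 (edgeR adjusted p = 0.0145). Cd180, a toll-like receptor homologue, had 16.2, 18.5, 14.9 and 19.3 CPM beside macrophages, against 46.0, 48.1, 40.5 and 45.5 CPM in cell-free cores. With its tight replicates it gave the lowest p of the members, at -1.49 ± 0.13 (edgeR adjusted p = 0.000876). Cd84, a receptor of the SLAM family, had 117, 156, 117 and 174 CPM beside macrophages, against 285, 249, 252 and 259 CPM in cell-free cores, a log2 fold change of -0.99 ± 0.17 (edgeR adjusted p = 0.0119). For each of these 6 genes the groups did not overlap, and the exact two-sided permutation test gave p = 0.0286, the smallest value 4 against 4 samples allow. The 6 genes were picked by their edgeR p in the same samples, so this unadjusted p adds no separate support.

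Csf1r was among the members that were not called. It had 557, 644, 623 and 1056 CPM beside macrophages, against 635, 571, 460 and 685 CPM in cell-free cores. These values overlapped, with a log2 fold change of 0.20 ± 0.25 (edgeR adjusted p = 0.667), which was -0.10 without macrophage replicate 4. C1qb, a chain of the complement starter C1q, had 311, 394, 343 and 682 CPM beside macrophages, against 393, 343, 344 and 251 CPM in cell-free cores. The log2 fold changes of the 3 C1q genes lay between -0.08 and 0.31. Adgre1, the F4/80 antigen, had 265, 420, 384 and 518 CPM beside macrophages, against 648, 434, 494 and 475 CPM in cell-free cores, a log2 fold change of -0.45 ± 0.24 (edgeR adjusted p = 0.292). Lyz2 had 3960, 5970, 4524 and 7555 CPM beside macrophages, against 9353, 6960, 8238 and 8598 CPM in cell-free cores, at -0.68 ± 0.28 (edgeR adjusted p = 0.188). In both genes macrophage replicate 4 lay within the range of the cell-free cores.

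**Figure D2:**
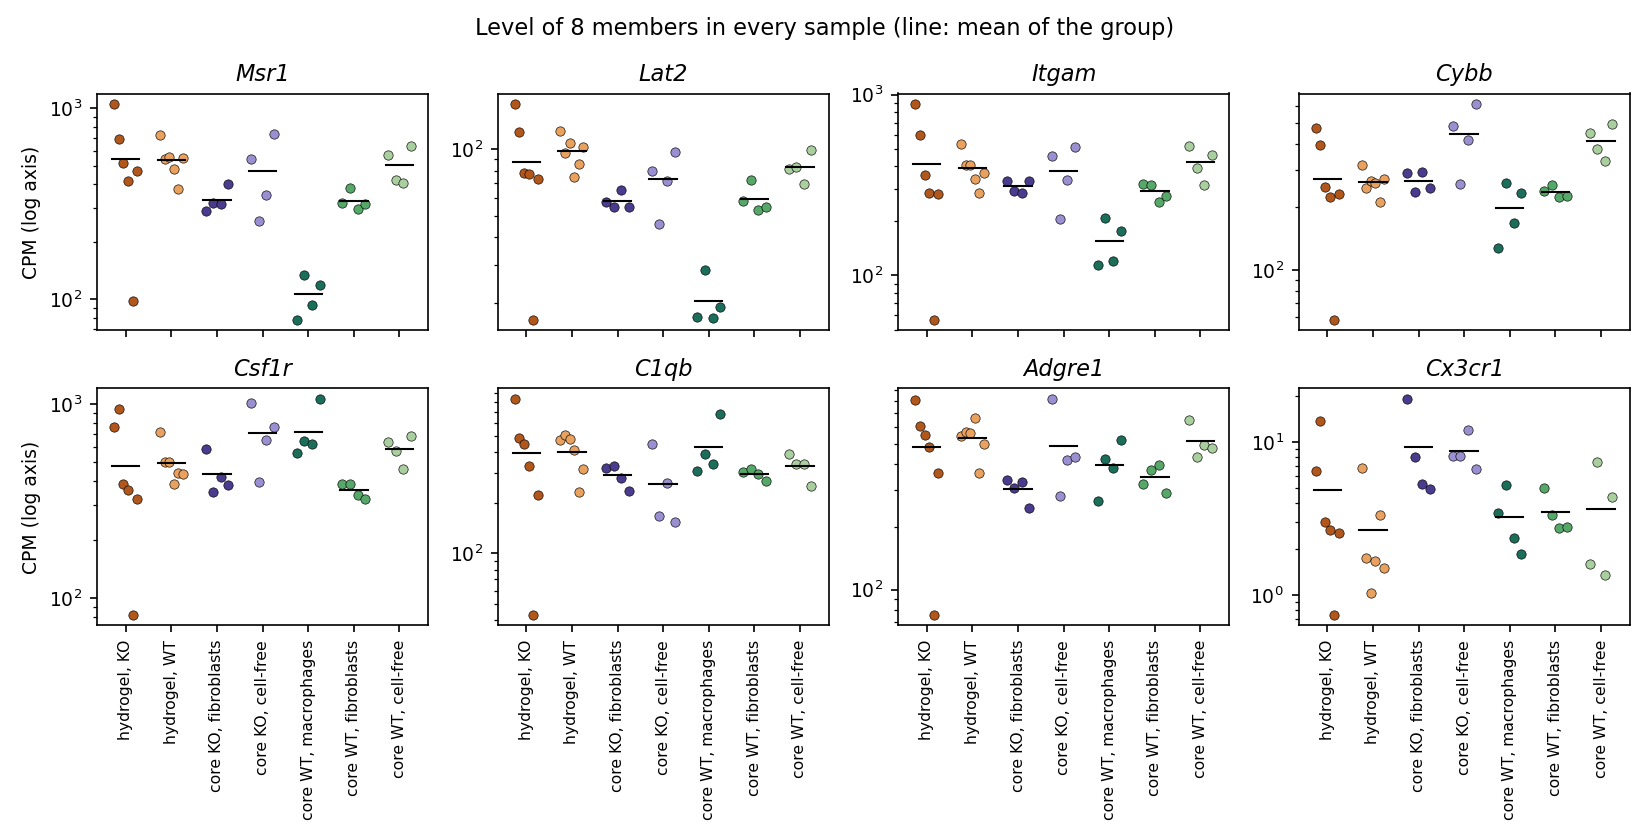
CPM of 8 members on a log axis in every sample of the 7 groups, with the mean of each group as a line. Msr1, Lat2 and Itgam were lower in all 4 WT cores beside macrophages than in any cell-free WT core, Csf1r and C1qb were not, and 1 KO hydrogel was the lowest of the 12 hydrogels in 8 of 8 panels.

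By role, the calls fell on adhesion and surface identity (3 of 5 members, median log2 fold change -0.99), microbial recognition (2 of 5, -0.77), leukocyte membrane and cytoskeleton (2 of 5, -0.36), Fc receptors and ITAM adaptors (1 of 7, -0.63), scavenging (1 of 4, -0.38) and microbe killing (1 of 3, -0.74). The C1q genes (0 of 3, 0.30), the receptors Csf1r and Cx3cr1 (0 of 2, -0.04) and Spi1 (-0.39) had no call. Coro1a and Cd14 both had a log2 fold change of -1.39, Cybb -1.16 and Cd53 -1.13. Among the other gene lists, 8 of 16 genes of ITAM and phagocyte signalling fell, including the Src-family kinases Fgr (-1.14) and Lyn (-0.64) and the phospholipase Plcg2 (-0.79), and none rose. 4 of 16 genes of the leukocyte cytoskeleton and NADPH oxidase fell, among them Plek (-1.21), Lcp1 (-1.24) and Rac2 (-0.88), and of 15 tested genes of the M-CSF axis and myeloid transcription factors only Csf2ra, a chain of the GM-CSF receptor, fell (-0.70). The members that fell and those that did not are marked in the plot of fold changes in WT cores.

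Markers of other cell types were read as summed levels in the same samples. The summed level of 11 neutrophil markers was 21.6 to 35 CPM beside macrophages, against 7.80 to 14.4 CPM in cell-free cores. Of 3 tested, Csf3r (1.73) was higher and S100a8 (-1.66) lower. In cell-free cores Csf3r alone averaged 7.28 CPM. S100a9, Ly6g, Ltf, Elane, Mpo, Retnlg, Ngp and Cxcr2 each averaged at most 0.231 CPM there, so the sum follows mainly Csf3r in those cores. The T cell and NK cell list summed to 7.72 to 18.1 CPM beside macrophages, against 4.82 to 8.03 CPM in cell-free cores, and 0 of 4 tested genes were called. Endothelial markers summed to 16.7 to 21.5 CPM beside macrophages, against 27.9 to 31.5 CPM in cell-free cores, with Pecam1 (1.68) higher and Kdr (-2.04) lower of 8 tested. 0 of 13 tendon fibroblast, 0 of 4 B cell, 0 of 2 mast cell and 0 of 3 dendritic cell genes tested were called, and no listed marker was at 0 in every macrophage or every cell-free core. Their part in the fall of the members was not tested. Within sample pairs of the same number, the members were lower beside macrophages for 31 of 35 (title code 150), 27 and 31 (code 152) and 20 (code 154). 21 members were called lower without macrophage replicate 4 (5.09% of all genes were lower in that fit), 4 without macrophage replicate 3 (1.43%), 6 without cell-free replicate 1 (2.68%) and 6 without cell-free replicate 4 (2.66%).

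**Figure D3:**
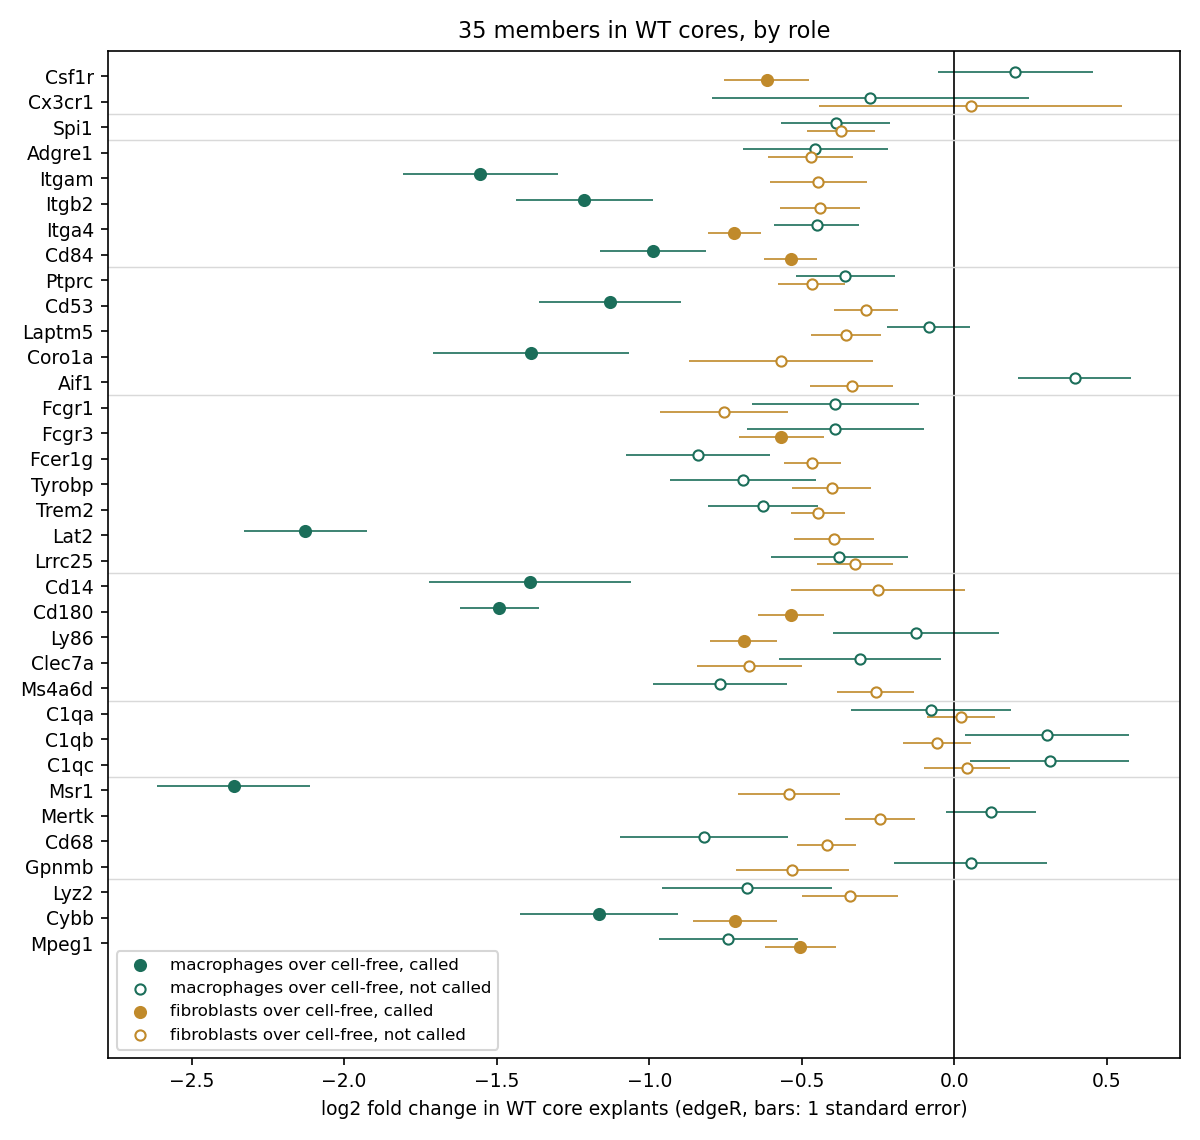
Log2 fold changes of the 35 members (vertical axis, ordered by role) in WT cores beside macrophages and beside fibroblasts, each over cell-free WT cores, with bars of 1 standard error. Filled points were called. Msr1 (-2.36) and Lat2 (-2.13) lie furthest left beside macrophages, while the 8 members called beside fibroblasts lie between -0.72 and -0.50. Both comparisons share the cell-free samples.

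Set against cores with fibroblasts, cores with macrophages had 2 members higher and 8 lower. Csf1r and the actin-bundling protein Aif1 (Iba1) were higher, and Lat2, Msr1, Cd180, Coro1a, Cd14, Itgam, Cd53 and Itgb2 were lower. In this comparison 5.25% of all genes were called higher and 5.5% lower (10.8% in either direction). The higher members were 5.71% of the 35, near the share of all genes, while the lower ones were 22.9%. The members' median log2 fold change was -0.16, with 15 above 0 and 20 below, against 0.01 for all genes. Csf1r, at the CPM given above beside macrophages, had 388, 385, 342 and 323 CPM in cores with fibroblasts. The groups did not overlap, with a log2 fold change of 0.84 ± 0.22 (edgeR adjusted p = 0.0288). Without any single fibroblast core this adjusted p was 0.0601 to 0.0831 in edgeR, and it was 0.054 in a fit over all 5 core groups, in which Aif1 (0.72, edgeR adjusted p = 0.115) and Coro1a (-0.82, edgeR adjusted p = 0.0898) also lost their call. Aif1, singled out after its values were seen, had 12.2, 12.8, 12.4 and 18.0 CPM beside macrophages, against 7.74, 7.87, 7.64 and 5.82 CPM beside fibroblasts (0.75 ± 0.17, edgeR adjusted p = 0.018). These groups did not overlap either.

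The lower members are given with their own values here, since the macrophage samples of both comparisons are the same. Lat2 had 58.0, 72.3, 52.9 and 54.9 CPM in cores with fibroblasts, all above the macrophage cores (-1.71 ± 0.17, edgeR adjusted p = 0.000913). Msr1 had 320, 382, 296 and 314 CPM there (-1.80 ± 0.19, edgeR adjusted p = 0.00105), and Cd180 had 28, 35.9, 23.5 and 28.6 CPM (-0.93 ± 0.14, edgeR adjusted p = 0.00366). All fibroblast cores lay above the macrophage cores in these 3 genes, and for Msr1 and Cd180 also below the cell-free cores. Coro1a (-0.79 ± 0.14), Cd14, the lipopolysaccharide co-receptor (-1.12 ± 0.21), and Itgam (-1.09 ± 0.21) had edgeR adjusted p-values of 0.00677, 0.00816 and 0.0103. Adgre1 differed by 0.04 ± 0.22 (edgeR adjusted p = 0.917), with a sign that turned under 4 of the alternatives, and Lyz2 by -0.32 ± 0.25 (edgeR adjusted p = 0.367). Of the other lists, Csf2rb (1.21), Cytip (1.52), Csf3r (2.45), Cd28 (1.83), Clec9a (0.73) and Pecam1 (1.90) were higher, while Fgr (-0.87), Plek (-0.88), Lcp1 (-0.78), Kdr (-1.12), Scx (-1.04) and Dpt (-1.06) were lower. Without macrophage replicate 4, 13 members were called lower, against 6.65% of all genes in that fit.

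The second question is how the same genes differed in cores beside seeded fibroblasts. The study reports that seeded fibroblasts also reach the core, so a core sample may hold their RNA. Its part in the differences below was not tested. In WT cores 8 members fell and none rose, all by modest amounts: the integrin chain Itga4, the Cd180 partner Ly86, Cd84, Cybb, Cd180, Csf1r, the pore-forming Mpeg1 and the low-affinity Fc receptor Fcgr3. Of all genes 1.51% were called higher and 1.12% lower (2.63% in either direction). 32 of the 35 members lay below 0, with a median log2 fold change of -0.45 against -0.02 for all genes, and the C1q genes stayed between -0.06 and 0.04.

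Itga4 had 49.4, 54.8, 48.1 and 51.0 CPM in WT cores with fibroblasts, against 105, 82.5, 87.8 and 84.1 CPM in cell-free WT cores. The groups were clearly separate (-0.72 ± 0.09, edgeR adjusted p = 0.00775). Cybb, the catalytic subunit of the phagocyte oxidase, had 238, 254, 222 and 226 CPM with fibroblasts, against 449, 379, 331 and 494 CPM in cell-free WT cores (-0.72 ± 0.14, edgeR adjusted p = 0.0258). Ly86 had 11.5, 13.1, 10.8 and 13.1 CPM with fibroblasts, against 23.0, 19.4, 19.0 and 22.4 CPM in cell-free WT cores (-0.69 ± 0.11, edgeR adjusted p = 0.0147). No core with fibroblasts reached a cell-free core in these 3 genes. Cd84 (-0.54 ± 0.09), Cd180 (-0.54 ± 0.11) and Csf1r (-0.61 ± 0.14) had edgeR adjusted p-values of 0.0151, 0.0314 and 0.0411. Of the other lists, the cytoskeletal genes Myo1f (-0.55) and Was (-0.53) and the endothelial Kdr (-0.90) fell, and the tendon fibroblast genes Col3a1 (1.09) and Scx (0.94) rose. The members were lower with fibroblasts in 34, 32, 32 and 31 of 35 within the 4 same-number pairs. The count of calls was sensitive to single cores, since 1 member was called without fibroblast replicate 1 or 3 (0.103% of all genes were lower in each of these fits), 2 without cell-free replicate 1 (0.239%), 3 without fibroblast replicate 4 (0.402%) and 4 without cell-free replicate 4 (1.45%). It was 17 when library totals were used without scaling factors (2.72%), where the median of all genes was -0.12.

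In KO cores, fibroblasts against a cell-free gel gave 0 member calls in edgeR, with a background of 0.301% higher and 0.132% lower among all genes (0.432% in either direction). At an unadjusted p below 0.05 with the same fold, 9 members were lower and none higher (background 3.14% higher, 4.01% lower and 7.15% in either direction), and DESeq2 called 1 lower. The median log2 fold change of the members was -0.46 (30 below 0) against -0.02 for all genes. Itga4 had 64.5, 56.8, 70.8 and 44.7 CPM in KO cores with fibroblasts, against 107, 75.1, 99.6 and 103 CPM in cell-free KO cores. The groups did not overlap, at -0.68 ± 0.16 (edgeR adjusted p = 0.101, exact permutation p = 0.0286). Cybb had 289, 235, 294 and 246 CPM with fibroblasts, against 484, 258, 415 and 614 CPM in cell-free KO cores (-0.72 ± 0.25, edgeR adjusted p = 0.279), where replicate 2 of the cell-free cores fell inside the range of the others. Without that replicate, left out after its levels were seen, Itga4 was at -0.81 (edgeR adjusted p = 0.0154) and Cybb at -0.93 (edgeR adjusted p = 0.0232). In that fit 5 members were called lower, against 1.86% of all genes. Leaving out the lowest cell-free core moves these fold changes down, so the fit is no separate support. The difference between the KO and the WT response, tested as an interaction, gave 0 member calls in edgeR (0% of all genes), 0 at an unadjusted p below 0.05 with the same fold (background 0.823% higher, 0.918% lower and 1.74% in either direction) and 0 in DESeq2. The lowest p-values were those of Laptm5, a lysosomal membrane protein (0.33 ± 0.19, edgeR adjusted p = 0.986), and the efferocytosis receptor Mertk (0.21 ± 0.20, edgeR adjusted p = 0.986), and the members' median was 0.03.

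The third question is whether the Il-6 label of the core went with these genes in the core itself. Between cell-free KO and cell-free WT cores no member was called in edgeR (0% of all genes), none in DESeq2, and at an unadjusted p below 0.05 there was 1 higher, Cx3cr1, and 1 lower, Ms4a6d (background 0.884% higher, 0.349% lower and 1.23% in either direction). Between KO and WT cores with fibroblasts, read at an unadjusted p below 0.05 with the same fold, 1 member was called, Cx3cr1, higher in KO cores (background 1.45% higher, 0.845% lower and 2.3% in either direction). The members' median log2 fold change was -0.04 in the first comparison and -0.03 in the second, against 0.01 and 0.00 for all genes.

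Cx3cr1, the fractalkine receptor of many resident macrophages, had the lowest counts of the members, down to 24 in a sample. It had 19.0, 7.96, 5.31 and 4.93 CPM in KO cores with fibroblasts, against 5.03, 3.36, 2.76 and 2.80 CPM in WT cores with fibroblasts. Only KO replicate 4 dipped below the highest WT core, with a log2 fold change of 1.38 ± 0.46 (edgeR p = 0.0172, adjusted p = 0.568, exact permutation p = 0.0571), which was 0.75 without KO replicate 1. In cell-free cores it had 8.15, 8.08, 12 and 6.65 CPM in KO cores, against 1.60, 7.37, 1.35 and 4.38 CPM in WT cores, at 1.29 ± 0.47 (edgeR p = 0.0213, adjusted p = 1, exact permutation p = 0.0286). Here 3 of 4 KO cores lay above all WT cores. In hydrogels the values ran from 0.75 to 13.7 CPM (median 2.84) around KO cores, against 1.04 to 6.76 CPM (median 1.72) around WT cores, at 0.87 ± 0.64 (edgeR p = 0.195, exact permutation p = 0.39), and overlapped widely. None of these differences passed at an adjusted p below 0.05, where the background between KO and WT cores with fibroblasts was 0.00622% higher and 0% lower. Ms4a6d, a membrane protein of the MS4A family, had 151, 53.8, 79.0 and 92.2 CPM in cell-free KO cores, against 200, 129, 175 and 139 CPM in cell-free WT cores (-0.71 ± 0.31, edgeR p = 0.045, adjusted p = 1, exact permutation p = 0.0857). KO replicate 1 overlapped the WT cores there, and the difference was -0.50 without KO replicate 2 (edgeR adjusted p = 0.834). With fibroblasts Ms4a6d had 97.2, 114, 98.6 and 88.3 CPM in KO cores, against 120, 140, 123 and 119 CPM in WT cores. These groups did not overlap, and the difference of -0.37 ± 0.07 was under the fold threshold.

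The fourth question is how the hydrogel compares with the core it surrounds. In WT assembloids with fibroblasts, 21 members were higher in the hydrogel than in the core and none was lower. They included Lrrc25, a leucine-rich repeat membrane protein, Spi1, Laptm5, Lat2, Tyrobp, the DAP12 adaptor of TREM2, and Fcgr1, the high-affinity IgG receptor. The 2 compartments differed widely, with 18.1% of all genes called higher and 24.7% lower (42.8% in either direction). The members' median log2 fold change was 0.52, with 33 of 35 above 0, against -0.00 for all genes. The compartments also differ in where their cells came from, Achilles and tail tendon, and this cannot be told apart from the compartment. By the methods, all hydrogel pools but not all core pools passed the checks of RNA integrity and concentration. A part of RNA quality was not tested.

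Lrrc25 had 28.5 to 40.7 CPM (median 38.0) in WT hydrogels, against 18.9, 21.2, 22 and 19.9 CPM in WT cores (0.87 ± 0.11, edgeR adjusted p = 2.14e-05). Spi1 had 73.8 to 138 CPM (median 84.7) in WT hydrogels, against 50.1, 52.0, 41.8 and 39.0 CPM in WT cores (1.06 ± 0.17, edgeR adjusted p = 0.000188). Tyrobp had 178 to 334 CPM (median 261) in WT hydrogels, against 147, 154, 148 and 135 CPM in WT cores (0.87 ± 0.15, edgeR adjusted p = 0.000226). In all 3 genes every hydrogel lay above every core. Laptm5 (0.75 ± 0.12) and Lat2 (0.76 ± 0.13) had edgeR adjusted p-values of 0.000192 and 0.000219. Fcgr1 had the largest log2 fold change of the members, 1.28 ± 0.25 (edgeR adjusted p = 0.000737), with 16.7 to 40.7 CPM in WT hydrogels, against 12.6, 12.3, 8.23 and 9.72 CPM in WT cores. The exact permutation p was 0.00952 for each of these 6 genes, the smallest that 6 against 4 samples allow. It is unadjusted, and the genes were picked by their edgeR p in the same samples. Lyz2 (0.65 ± 0.15, edgeR adjusted p = 0.00249) and Adgre1 (0.67 ± 0.15, edgeR adjusted p = 0.00205) were higher as well. Csf1r stood at the edge of the fold threshold, at 0.51 ± 0.16 (edgeR adjusted p = 0.0124).

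By role, the higher calls took in Fc receptors and ITAM adaptors (6 of 7), leukocyte membrane and cytoskeleton (4 of 5), microbial recognition (4 of 5), microbe killing (2 of 3), scavenging (2 of 4), receptors (1 of 2), adhesion (1 of 5) and Spi1. No C1q gene was called (0 of 3, 0.40 to 0.49). Mertk (-0.31) and Cx3cr1 (-0.33) were the 2 members below 0, and neither was called. Other phagocyte lists rose in part, with 7 of 16 genes of ITAM signalling (Plcg2 0.78, Vav1 0.62), 9 of 16 of the cytoskeleton and oxidase list (Cyba 0.92, Was 0.78, Arhgdib 0.57) and 5 of 15 tested of the M-CSF and transcription factor list (Cebpb 1.12, Cebpa 0.75), where Runx1 fell (-1.11). 7 of 13 tendon fibroblast genes fell (Dpt -1.99, Mkx -1.76, Dcn -1.07) and none rose. 4 of 4 B cell and 2 of 3 dendritic cell genes tested also fell, while 2 of 3 neutrophil genes rose. Their part in the rise of the members was not tested.

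In KO assembloids, 0 members were called in edgeR for hydrogel over core (background 17% higher and 24.5% lower, 41.5% in either direction), although the median log2 fold change was 0.55 and 33 of 35 lay above 0. The counts were 0 as well in DESeq2 and at an unadjusted p below 0.05 with the same fold, where the background was 17.8% higher and 25.4% lower (43.2% in either direction). KO hydrogel replicate 5 was lower than the other 5 for every member. Lrrc25 had 4.41 to 49.2 CPM (median 26.8) in KO hydrogels, against 17.2, 14.6, 16.7 and 14.1 CPM in KO cores, and 5 of 6 hydrogels lay above every core. With all 6 hydrogels its log2 fold change was 0.95 ± 0.51 (edgeR adjusted p = 0.136), and without replicate 5 it was 1.19 (edgeR adjusted p = 0.0025). Tyrobp gave 0.97 ± 0.53 (edgeR adjusted p = 0.144), and 1.21 (edgeR adjusted p = 0.00544) without it. Adgre1 gave 0.77 ± 0.49 (edgeR adjusted p = 0.203), and 1.01 (edgeR adjusted p = 0.0022) without it. Lyz2 gave 0.83 ± 0.53 (edgeR adjusted p = 0.208), and 1.07 (edgeR adjusted p = 0.00735) without it. Csf1r gave 0.24 ± 0.53 (edgeR adjusted p = 0.724). Without replicate 5, 17 members were called higher, against 21% of all genes in that fit. Replicate 5 was left out after its levels were seen. Leaving out the lowest hydrogel moves these fold changes up, so the fit is no separate support. A replicate block over the 4 assembloids with both compartments, which leaves out KO hydrogel replicates 1 and 5, called 18 higher and 1 lower, against 20.7% and 25.6% of all genes. 4 of 15 tested genes of the M-CSF and transcription factor list and 2 of 16 of the cytoskeleton list were higher with all 6 hydrogels, 0 of 16 of the ITAM list were called, and 5 of 13 tendon fibroblast genes were lower.

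**Figure D4:**
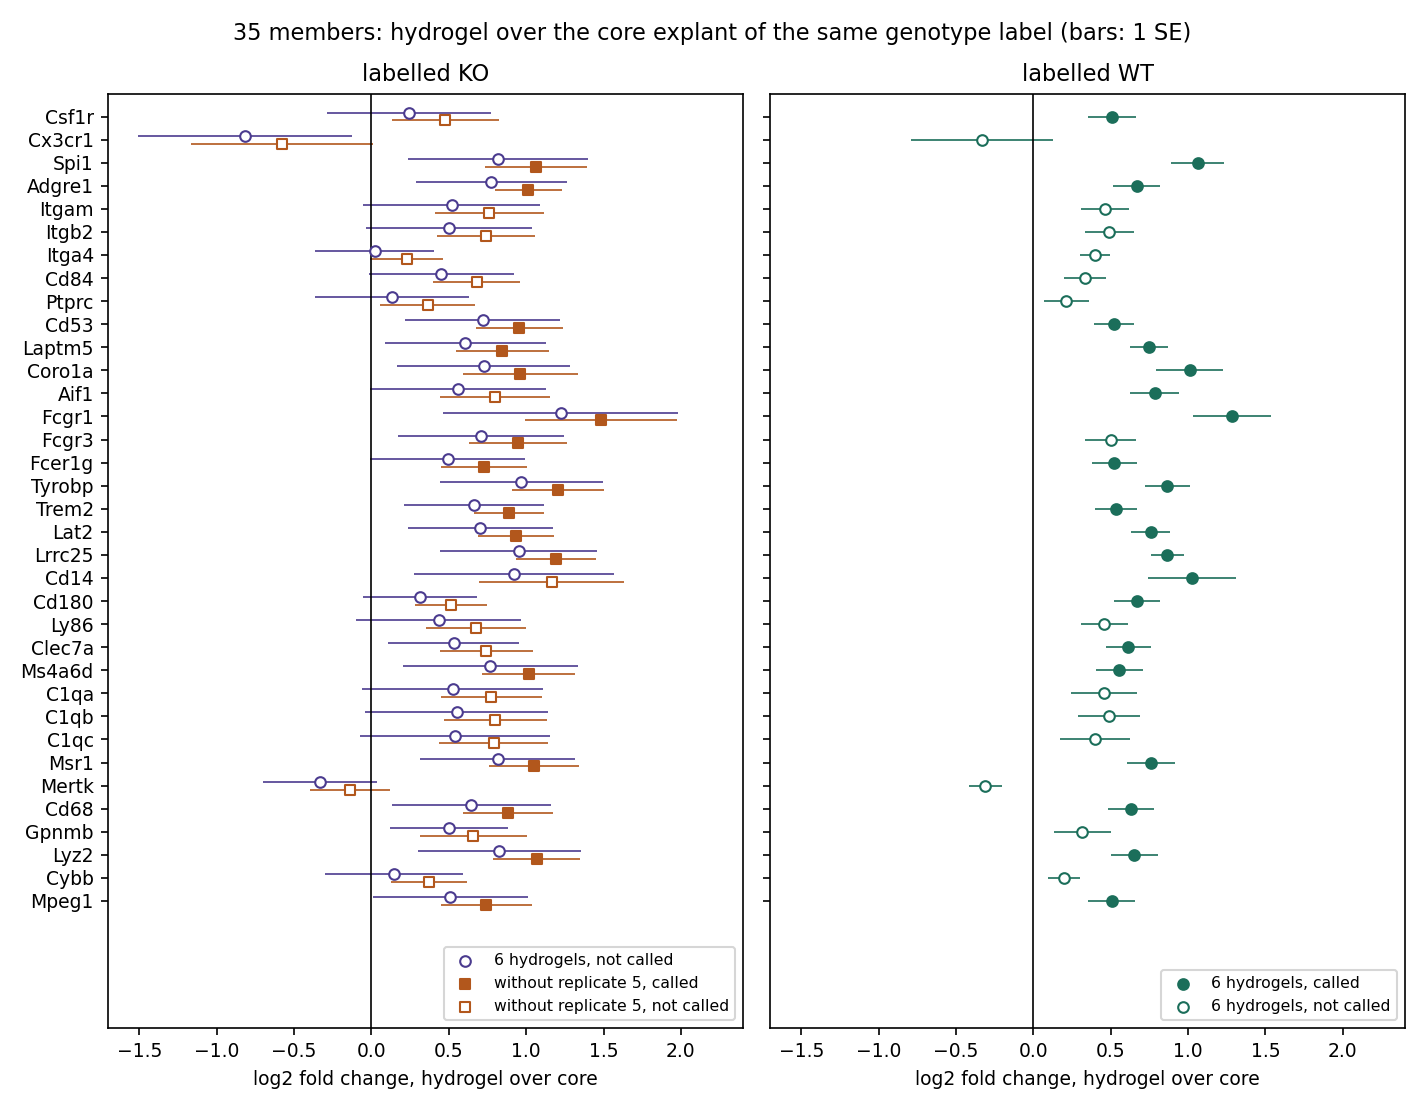
Log2 fold change of hydrogel over core (horizontal axis, bars of 1 standard error) for the 35 members in assembloids with a KO core (left) and a WT core (right). Filled symbols were called, and squares are the KO fit without replicate 5, left out after its levels were seen. 33 of 35 members lie above 0 in both panels, and 21 are called in the WT panel.

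Finally, hydrogels around KO cores were compared with hydrogels around WT cores, which asks whether the Il-6 label of the core went with these genes across the compartment border. No member was called at an unadjusted p below 0.05 (background 0.493% higher and 0.236% lower, 0.729% in either direction), none at an adjusted p (0% of all genes) and none in DESeq2. The members' median log2 fold change was -0.04, against -0.01 for all genes. The lowest p-values were those of Cx3cr1, given above, and Cd180 (-0.36 ± 0.31, edgeR p = 0.27, exact permutation p = 0.184), which ran from 11.4 to 56.8 CPM (median 30.2) around KO cores, against 32.5 to 59.7 CPM (median 44.3) around WT cores. Adgre1 differed by -0.13 ± 0.40, Csf1r by -0.04 ± 0.44 and Lyz2 by 0.13 ± 0.43, with exact permutation p-values of 0.602, 0.58 and 0.838.

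The KO hydrogels spread far more widely than the WT hydrogels. Adgre1 had 805, 608, 549, 481, 75.9 and 362 CPM in KO hydrogels, against 547, 568, 561, 662, 360 and 499 CPM in WT hydrogels. Msr1 had 1052, 690, 519, 416, 97.5 and 472 CPM in KO hydrogels, against 729, 545, 554, 481, 378 and 547 CPM in WT hydrogels. KO replicate 5 was the lowest and KO replicate 1 the highest in both genes for the KO group, and the groups overlapped. Replicate 5 reached 6.31% to 45% (median 17%) of the median of the other 5 KO hydrogels across the members, with 31994846 counts in its library, and its tendon fibroblast markers summed to 80002 CPM, the top of a KO range that began at 27374 CPM. Replicate 1 was the highest KO hydrogel for 28 members. Whether the makeup of that gel set the members' level was not tested.

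The count of higher members differed between title codes, with 2 pairs per code, and this was not tested. Within same-number pairs, members were higher in the KO hydrogel for 32 and 28 of 35 under code 150, for 6 and 5 under code 152 and for 0 and 2 under code 154. The summed level did not always go with that count. In the pair of replicate 3 (code 152) it was 20663 CPM in the KO hydrogel, against 20221 CPM in the WT hydrogel. Leaving out KO replicate 5 moved the members' median log2 fold change to 0.19, with 30 of 35 above 0, and leaving out KO replicate 1 moved it to -0.34, with 1 of 35 above 0. In both cases 0 members were called. The heat map of the hydrogels shows these samples as whole columns.

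**Figure D5:**
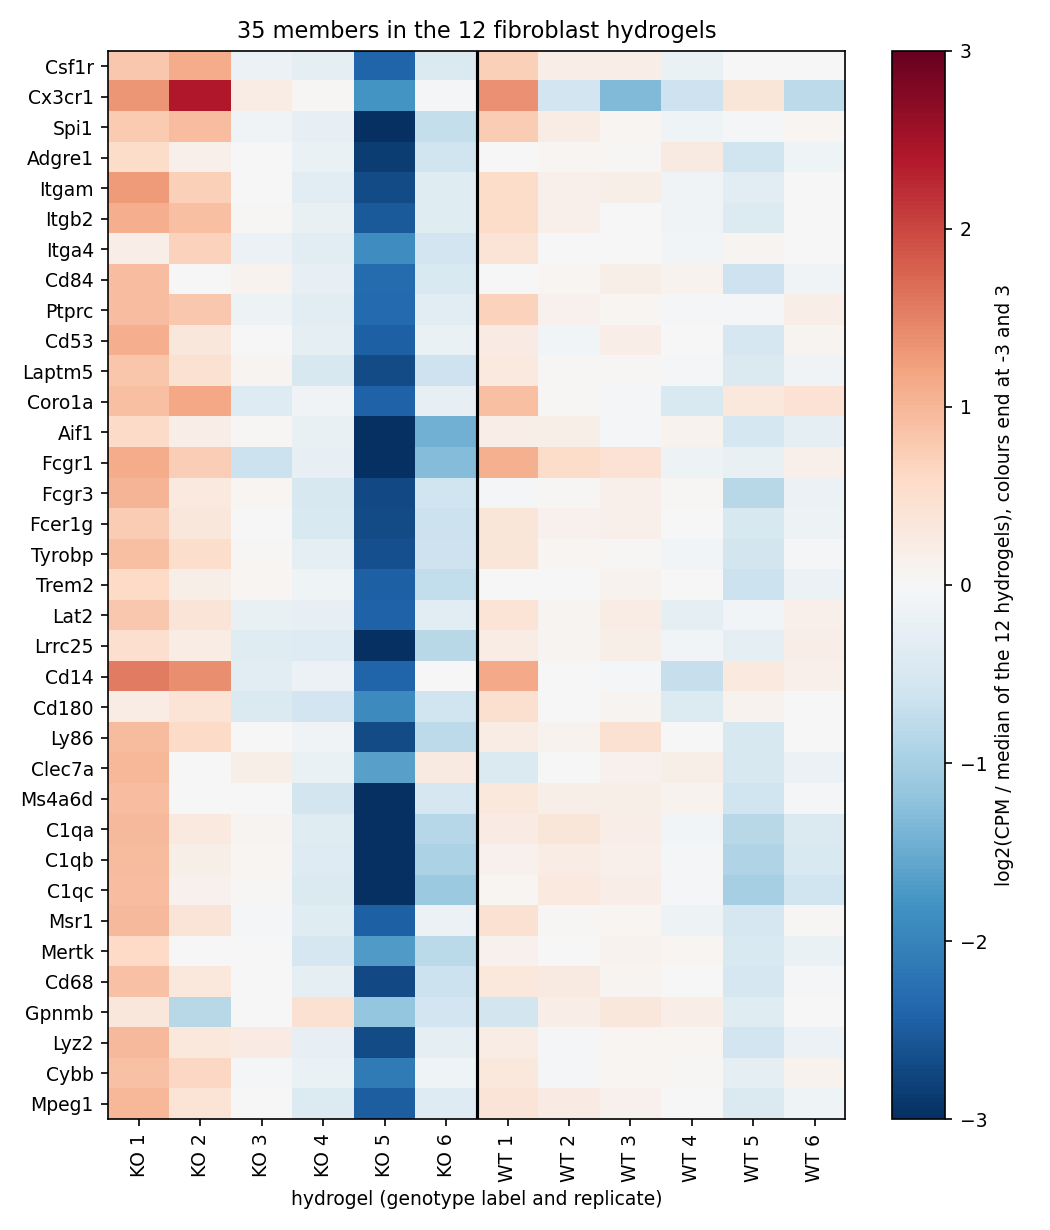
Level of the 35 members (rows, ordered by role) in the 6 KO and 6 WT hydrogels (columns), as log2 of CPM over the median of the 12 hydrogels, with colours ending at -3 and 3. The column of KO replicate 5 is low for 35 of 35 members, while no single row separates the KO from the WT columns.

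Some members have near-identical relatives whose reads the pseudoalignment may have shared out. Lyz1, the relative of Lyz2, had 276, 651, 420 and 579 CPM in WT cores beside macrophages, 1164, 860, 1138 and 765 CPM beside fibroblasts, and 2721, 1168, 1261 and 1672 CPM in cell-free WT cores. All 4 macrophage cores lay below all others, and the split of counts between Lyz1 and Lyz2 is uncertain. The same holds for Fcgr3 and Fcgr1 against Fcgr2b and Fcgr4, and for Ms4a6d against Ms4a6b and Ms4a6c.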

How the data were processed

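The authors mapped stranded, ribosomal RNA-depleted reads with kallisto 0.46.1 (build GRCm39; annotation release not given in labels or methods) and deposited estimated counts as whole numbers per gene. Of 25700 genes, 25587 had a symbol in the name table. Groups came from the sample labels. Genes were filtered with filterByExpr, library sizes scaled with TMM and comparisons fitted with edgeR 4.0.16 (robust quasi-likelihood test, Benjamini-Hochberg adjustment, R 4.3.3), each on its own groups, the interaction on 4 core groups. Calls needed an adjusted p below 0.05 and an absolute log2 fold change above 0.5, or an unadjusted p between KO and WT with fibroblasts (cores and hydrogels). The named members were also tested by exact permutation (scipy 1.17.1, prior count 2), without adjustment. DESeq2 1.42.0 was an alternative, and the script was tested on simulated data. Groups held 4 to 6 samples.

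Fold changes are given, in each comparison, for up to 6 called members with the lowest p (2 if none is called) and for Adgre1, Csf1r and Lyz2 with macrophages and hydrogels; 10 other gene lists gave up to 3 genes each. Some genes of these lists are not reported here. The members and lists were chosen with earlier results of these data known.

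Within cores and within hydrogels, same-numbered samples share codes in the titles whose meaning is not given. Between hydrogel and core the numbers differ, and samples were matched by these codes. In several comparisons the matched samples deviated together. The correlation of deviations from the group means was 0.19 to 0.34 and 0.17 to 0.25 in the 2 macrophage comparisons. It was 0.21 to 0.39 in KO cores and 0.26 to 0.60 between hydrogels. Between hydrogel and core it was 0.23 to 0.32 for WT and 0.23 to 0.42 for KO. Unmatched samples reached at most 0.23 and 0.11 in the 2 macrophage comparisons, 0.10 in KO cores and 0.72 between hydrogels. Between hydrogel and core they reached at most 0.33 for WT and 0.14 for KO. The ranges of matched and unmatched samples thus overlapped in some comparisons. In all of these comparisons the matched samples were read as possible pairs. The main fits and the permutation tests left all samples unpaired, and pairing entered only through the replicate block. Alternatives were the replicate block, a block by title code, other scalings, filters and thresholds, a fit over all 5 core groups and leaving out each replicate.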

Additional observations from a re-analysis of the deposited data

Results flagged for a closer look

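In 9 of 168 sets of values (23 named members and their sum in 7 groups), 1 sample lay farther from the others than Dixon's 95% limit allows, and chance alone gives about 1 in 20. WT hydrogel replicate 1 was the highest of its group for Csf1r (720 CPM, others 385 to 503 CPM), Itga4 (82.5 CPM, others 58.0 to 65.1 CPM) and Spi1 (138 CPM, others 73.8 to 95.4 CPM). WT core replicate 4 beside macrophages was the highest of its group for Aif1 (18.0 CPM, others 12.2 to 12.8 CPM), Fcgr1 (24.1 CPM, others 12 to 13.9 CPM) and Lrrc25 (32.2 CPM, others 18.6 to 20.1 CPM). KO core replicate 4 with fibroblasts was the lowest for Mertk (46.0 CPM, others 62.4 to 64.5 CPM). Aif1 was lowest in WT core replicate 4 with fibroblasts (5.82 CPM, others 7.64 to 7.87 CPM) and highest in cell-free WT core replicate 1 (12.2 CPM, others 8.79 to 9.31 CPM).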

How the results depend on the processing

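The share of all genes called changes with each setting as well, and some of these shares are given with the results above. Where the share is not given, a count is no result about the members alone. Beside macrophages against a cell-free gel, 10 members were called lower. An unadjusted p gave 17 (6.56% of all genes lower), a title code block 16, DESeq2 15 and leaving out single samples 4 to 21. Against cores with fibroblasts, the 2 higher became 0 in the fit over all 5 core groups, 5 with library totals (chosen after seeing the data, with a median of all genes of 0.20) and 1 to 3 when a sample was left out, and the 8 lower became 6 to 13. The 8 lower with fibroblasts in WT cores became 1 in the fit over all 5 core groups, 17 with library totals and 1 to 11 when a sample was left out. In KO cores the 0 lower became 1 in DESeq2, 1 in the fit over all 5 core groups, 9 at an unadjusted p and 0 to 5 when a sample was left out. Between cell-free KO and WT cores an unadjusted p gave 1 higher and 1 lower. Between KO and WT cores with fibroblasts the 1 higher became 0 at an adjusted p and 1 to 2 when a sample was left out, and 3 members were lower without a fold threshold. Between hydrogels the 0 higher became 0 to 1 when a sample was left out and 1 with a replicate block without pair 5 (chosen after seeing the data). In WT assembloids the 21 higher in hydrogels became 16 to 28 when a sample was left out, and the 0 lower became 1 without a fold threshold, 1 in matched assembloids taken unpaired, 1 with the replicate block and 0 to 1 when a sample was left out. In KO assembloids the 0 higher became 13 in matched assembloids taken unpaired (chosen after seeing the data), 18 with the replicate block and 0 to 17 when a sample was left out, and the 0 lower became 1 with the replicate block and 1 with the title code block.

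For most replicate block fits the share of all genes called is not given. Their member counts are therefore no result about the members alone. With the replicate block, 14 members were lower beside macrophages against a cell-free gel, 2 higher and 9 lower against fibroblasts, 7 lower with fibroblasts in WT cores, 1 higher between KO and WT cores with fibroblasts and 25 higher in WT hydrogels over cores. Besides these and the hydrogel-over-core counts with the block given above, the member counts stayed at 0 with the block, the interaction included. The numbers were not read as possible pairs with fibroblasts in WT cores (lowest same-number correlation 0.07) or between cell-free KO and WT cores (-0.00). Nor were they between KO and WT cores with fibroblasts (-0.18) or in the interaction (-0.19).

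Single log2 fold changes that turned sign were all uncalled. Csf1r beside macrophages against a cell-free gel ranged from -0.10 to 0.36 when a sample was left out. Adgre1 beside macrophages against fibroblasts was -0.022 with the replicate block, -0.023 with the title code block and -0.16 to 0.22 when a sample was left out. Between hydrogels, Adgre1 ranged from -0.37 to 0.10 when a sample was left out. Csf1r there was 0.018 with the block without pair 5 and -0.35 to 0.19 when a sample was left out, and Lyz2 was -0.16 with the replicate block, -0.022 with the title code block and -0.19 to 0.37 when a sample was left out. Csf1r in KO hydrogels over cores was -0.084 with the title code block and -0.072 to 0.48 when a sample was left out. The causes were not tested.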
